A study of Mus musculus with 102 samples.

Results

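The Nnat locus of the mouse genome is an imprinted gene that lies inside an intron of another gene, Blcap. All CpGs measured by capture bisulfite sequencing between positions 157370000 and 157405000 of chromosome 2 (mm9) were taken, which gave 188 CpGs of the 2177608 in the capture table. The window was placed by position, but it was selected on the methylation levels it shows on day 0, on day 29 and in wild-type cells, so those levels are given as a description. The reference sequence holds 529 CpGs in these 35001 bases, and the 188 measured CpGs lie between -4130 and +11935, where positions are counted in bases from the start of Nnat and are negative upstream of it. The nearest measured CpGs outside the window lie at -18158, where cells without TET enzymes fell from 70.3% to 22.5% between days 0 and 29, and at +31128, where they fell from 18.4% to 3.8%. The first measured CpG inside it, at -4130, fell from 77.7% to 42.0%, and the last, at +11935, had 3.4% and then 1.3%.

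The cells were mouse embryonic stem cells (ESCs) of C57BL6/J background in which loxP sites flank the catalytic exons of both alleles of Dnmt3a and Dnmt3b, the de novo methyltransferases. Wild-type cells are this parental line, with intact Dnmt3a/3b and functional TET enzymes, and were measured at day 0. TET triple knockout (TTKO) cells are 1 clone of the same line with frameshift mutations in Tet1, Tet2 and Tet3, whose products oxidise methylated cytosine, and were measured without transduction at day 0, when Dnmt3a/3b were intact, and at days 4, 8, 10, 13, 17 and 29 after transduction with Cre protein, when Dnmt3a/3b are labelled catalytic dead. By the study's methods, excision was not complete and DNMT3 is lost gradually. Cells were grown on feeder cells until shortly after the transduction and without feeders from then on. Each of the 8 conditions had 3 replicates, 24 samples in all, and the replicates were joined in a single column per condition. The spread between replicates is therefore unknown here, and tests compare pooled libraries rather than conditions. None of the 24 capture samples was mock-treated, so changes after Cre and changes with time in culture cannot be told apart. The study reports stable methylation over time in mock-treated TTKO amplicon samples, whose CpGs lie outside this window.

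Neuronatin, the product of Nnat, is a small membrane protein expressed in the nervous system and other endocrine and metabolic tissues. Nnat is transcribed from the paternal allele only, and its promoter region is methylated on the maternal allele, a mark set in the oocyte. Such marks at imprinted genes are passed on through cell division by the maintenance methyltransferase DNMT1, and in ESCs they are bound by the zinc finger protein ZFP57 and its partner TRIM28. Blcap, which encodes a protein linked to cell proliferation and apoptosis, is transcribed in the opposite direction and has a start downstream of Nnat in a CpG-dense region. A bisulfite read shows whether a cytosine was methylated on 1 DNA molecule, and the methylation level is the share of reads that were. Because the cells have an inbred background and the levels are summed over all reads, the parental alleles cannot be told apart in these values.

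Nnat lies on the plus strand at chr2:157385814-157388258 and Blcap on the minus strand at chr2:157382098-157397010. Blcap has annotated transcript starts at -71, +6253, +6259, +6283 and +11196. The start at -71 lies beside that of Nnat, and CpGs within 1000 bases of the Nnat start or in Nnat were counted with Nnat. CpGs described as near Blcap starts are those near the other starts. Depth at the locus was between 50 and 963 reads per CpG and condition, with a median of 248.5, and the median over the CpGs of the locus ranged from 158 reads at day 8 to 290.5 reads at day 17. Every interval given is a 95% Wilson interval and covers counting error only, since reads are PCR products without molecular identifiers.

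The plus-strand sequence of the 300 bases before the Nnat start (chr2:157385514-157385813) is shown first because all 17 CpGs in it were measured and were partly methylated. The minus-strand sequence of the 300 bases before the Blcap start at +6283 (chr2:157392098-157392397) is shown beside it because all 16 of its CpGs were measured and were almost free of methylation. Capitals mark the measured CpGs. The bases before the Nnat start include an exon of a non-coding Blcap transcript.
Nnat upstream: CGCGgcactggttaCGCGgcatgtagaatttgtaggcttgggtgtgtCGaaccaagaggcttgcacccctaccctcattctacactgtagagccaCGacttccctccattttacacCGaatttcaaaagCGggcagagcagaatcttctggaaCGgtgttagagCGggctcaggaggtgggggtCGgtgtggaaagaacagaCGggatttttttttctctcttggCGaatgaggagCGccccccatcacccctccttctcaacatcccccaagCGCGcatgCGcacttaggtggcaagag
Blcap upstream: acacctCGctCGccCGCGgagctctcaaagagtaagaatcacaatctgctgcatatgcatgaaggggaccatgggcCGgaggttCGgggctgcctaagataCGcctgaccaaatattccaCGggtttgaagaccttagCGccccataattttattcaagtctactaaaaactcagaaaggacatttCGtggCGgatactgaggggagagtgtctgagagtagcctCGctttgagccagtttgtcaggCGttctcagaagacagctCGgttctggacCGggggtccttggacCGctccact
The GC contents were 55.0% and 53.0%, and the ratios of observed to expected CpGs were 0.749 and 0.761. The median methylation level at day 0 in TTKO cells was 42.5% (range 35.0 to 59.3%) in the Nnat sequence and 1.05% (0.3 to 2.2%) in the Blcap sequence. Sequences of like CpG content inside 1 gene thus had levels that did not overlap. At day 29 the medians were 32.3% and 1.2%, and wild-type cells had 38.4% and 0.7%.

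ZFP57 is known to bind the sequence TGCCGC where its CpG is methylated. This hexamer was searched on both strands of the window and matched 12 times, and 6 of the matches hold a measured CpG. All 6 lie within 1000 bases of the Nnat start, at -298, -284, +28, +262, +294 and +318. They make up 5.08% of the 118 measured CpGs near the Nnat start and in the gene, against 1.05% of all CpGs of the capture table. Of the 6 matches, 3 are shown with 12 bases on each side, with the hexamer in capitals: the highest and the lowest by the methylation they kept, and the match in the 5′ untranslated region of Nnat.
Match at -284, minus strand, chr2:157385517-157385546: acaaattctacaTGCCGCgtaaccagtgcc
Match at +28, minus strand, chr2:157385829-157385858: tgctgggcgcaaTGCCGCagccccggtggc
Match at +262, plus strand, chr2:157386061-157386090: ccatatcgcgatTGCCGCccctacccaacc
The CpG at -284 had 50.2% methylation at day 0 and 40.2% at day 29. The CpG at +28 had 45.0% and 33.6%, and the CpG at +262 had 46.3% and 25.8%. Wild-type cells had 41.2%, 38.3% and 39.9% at these 3 CpGs. The CpGs at -298, +294 and +318 had 49.0%, 46.6% and 44.0% at day 0 and 37.5%, 30.1% and 30.8% at day 29. Matches at the hexamer describe the sequence, and binding of ZFP57 was not measured.

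The locus fell into stretches of partial, high and near-zero methylation. The map of levels along the locus shows a partly methylated block around the Nnat start, high levels at the end of the gene and in the Blcap intron behind it, and an unmethylated stretch at the inner Blcap starts. Within 1000 bases of the Nnat start, 91 CpGs had a median of 44.4% at day 0 in TTKO cells, and the 27 CpGs in the rest of the gene had a median of 49.0%. The 36 CpGs near the inner Blcap starts, between +6247 and +7229, had a median of 1.0%. None of these 36 reached 5%, while none of the 118 CpGs of Nnat was under 20.6%. The 2 sets of CpGs are separated by 17 CpGs of the Blcap intron between +2466 and +5023, with a median of 75.0% and a range of 33.3 to 83.2%.

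**Figure D1:**
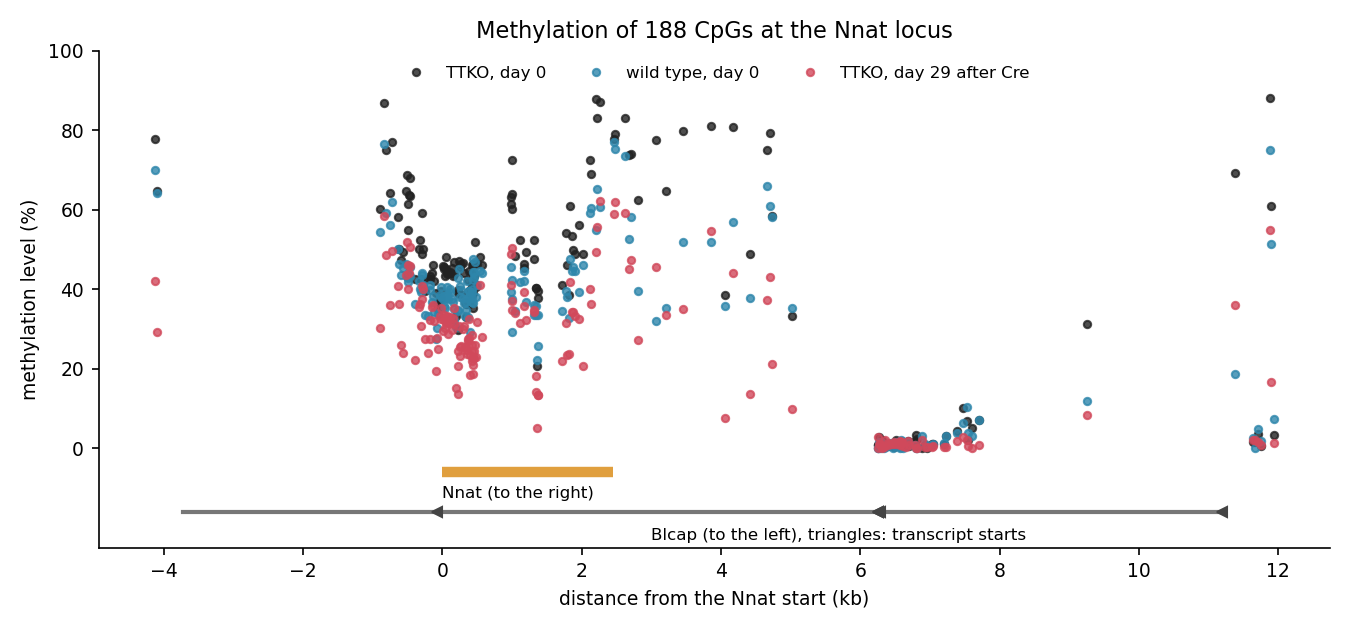
Methylation level (%) of each of the 188 CpGs against the distance from the Nnat start (kb), in TTKO cells at day 0 (black), wild-type cells at day 0 (blue) and TTKO cells at day 29 after Cre (red). The bars under the plot show Nnat and Blcap, and triangles show Blcap transcript starts. The points around the Nnat start lie at intermediate levels in all 3 conditions, and the 36 points from +6247 to +7229 lie near 0 in all 3.

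Methylation of the Nnat start region fell over the time course after Cre. The medians over its 91 CpGs were 44.4%, 41.5%, 41.6%, 41.2%, 40%, 35.3% and 30.8% over the 7 time points, from day 0 to day 29 in order. Most of the fall in the median came after day 13. The summed level at day 29 was 66.5% of that at day 0. At single CpGs the level ranged from 29.7 to 86.9% at day 0 and from 13.8 to 58.4% at day 29. All 118 CpGs of the Nnat start and gene were lower at day 29 than at day 0.

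The CpGs nearest to the Nnat start on each side are given at all 7 time points. The CpG at -19 (chr2:157385795-157385796) had 37.8% (interval 33.0 to 42.9%, 370 reads), 41.5%, 42.9%, 42.2%, 43.1%, 38.9% and 35.3% (30.6 to 40.2%, 380 reads) over the 7 time points. Its intervals at day 0 and day 29 overlapped, it kept 93.4% of its level, and its wild-type level was 40.6%. It kept the highest share of all CpGs of the locus with 30 to 70% methylation at day 0. The CpG at +13, in the 5′ untranslated region, had 45.8% (40.7 to 50.9%, 365 reads), 41.6%, 42.1%, 41.6%, 37.8%, 35.8% and 29.6% (25.2 to 34.3%, 379 reads) in the same order. Its intervals at day 0 and day 29 did not overlap. Between the CpGs at -19 and +13, the intervals overlapped at day 0 and at day 29.

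The lowest and the highest levels of the start region lay at some distance from the start. The CpG at +226, in an exon of a non-coding Nnat transcript, had 29.7%, 25.6%, 30.1%, 29.7%, 23.5%, 22.9% and 13.8% over the 7 time points, with 34.5% in wild-type cells. The CpG at -843 had 86.9%, 85.5%, 83.1%, 81.6%, 77.6%, 69.6% and 58.4% over the 7 time points, with 76.5% in wild-type cells. The 95% Wilson intervals at day 0 and day 29 did not overlap at either CpG, with 23.0 to 37.3% and 9.62 to 19.5% at +226 and 83.8 to 89.6% and 54.1 to 62.5% at -843.

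Around the start, 70 CpGs between -395 and +568 formed a stretch of even levels, whose bounds were set after the levels had been seen. It spans 964 bases, and 69 of the 70 CpGs had 30 to 60% methylation at day 0. Its median was 43.4%, 39.7%, 38.5%, 39.7%, 37.6%, 33.9% and 28.2% over the 7 time points. Upstream of it, 11 CpGs between -638 and -460 had a median of 61.4% at day 0 and 43.6% at day 29, and 5 CpGs between -892 and -716 had 75.0% and 48.6%. The day 0 medians thus rose with the distance upstream, while the shares of the summed level that were kept were 66.6% in the even stretch, 69.1% in the next and 61.3% in the farthest.

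Within the gene, the levels went up and down, and the highest lay at its 3′ end. The 5 CpGs between +987 and +999 had a median of 63.2% at day 0 and 41.1% at day 29. The 12 CpGs between +1037 and +1370 had a median of 45.8% at day 0 and 31.9% at day 29, and the 15 CpGs between +1724 and +2257 had 54.2% and 34.3%. The CpG at +2208 in the 3′ untranslated region had the highest level of the gene, with 87.8%, 82.9%, 82.2%, 77.6%, 72.8%, 60.5% and 49.3% over the 7 time points. The lowest was at +1360 in an intron, with 20.6%, 25.2%, 10.8%, 14.9%, 12.9%, 8.2% and 5.2% over the 7 time points. By annotation, 30 CpGs in coding exons had a median of 44.2% at day 0 and kept 63.7% of their summed level. The 17 in untranslated regions had 45.8% and kept 64.4%, and the 12 in introns had 43.5% and kept 55.4%. The intron CpGs include the 5 between +1344 and +1370 described next, which kept 36.2% of their summed level.

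The CpG at +1360 belongs to 5 neighbouring CpGs in an Nnat intron, at +1344, +1348, +1360, +1366 and +1370, that kept between 25.2 and 45.2% of their level. Outside this group, the lowest share in the gene was 42.0%, at +2018. The 5 CpGs were singled out after their values had been seen. Their plus-strand sequence (chr2:157387149-157387193) has a GC content of 84.4%, and capitals mark the measured CpGs.
Nnat intron: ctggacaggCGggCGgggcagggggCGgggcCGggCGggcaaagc
Their median was 39.7% at day 0 (20.6 to 40.3%) and 13.5% at day 29 (5.2 to 18.2%), so the ranges did not overlap. They kept 36.2% of their summed level. The lowest share among Nnat CpGs with 30 to 70% at day 0 was that of the CpG at +1370, which fell from 39.7% (31.4 to 48.6%, 121 reads) to 13.5% (8.36 to 21.1%, 111 reads) and kept 34.0%. Wild-type cells had a median of 33.6% at these CpGs.

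**Figure D2:**
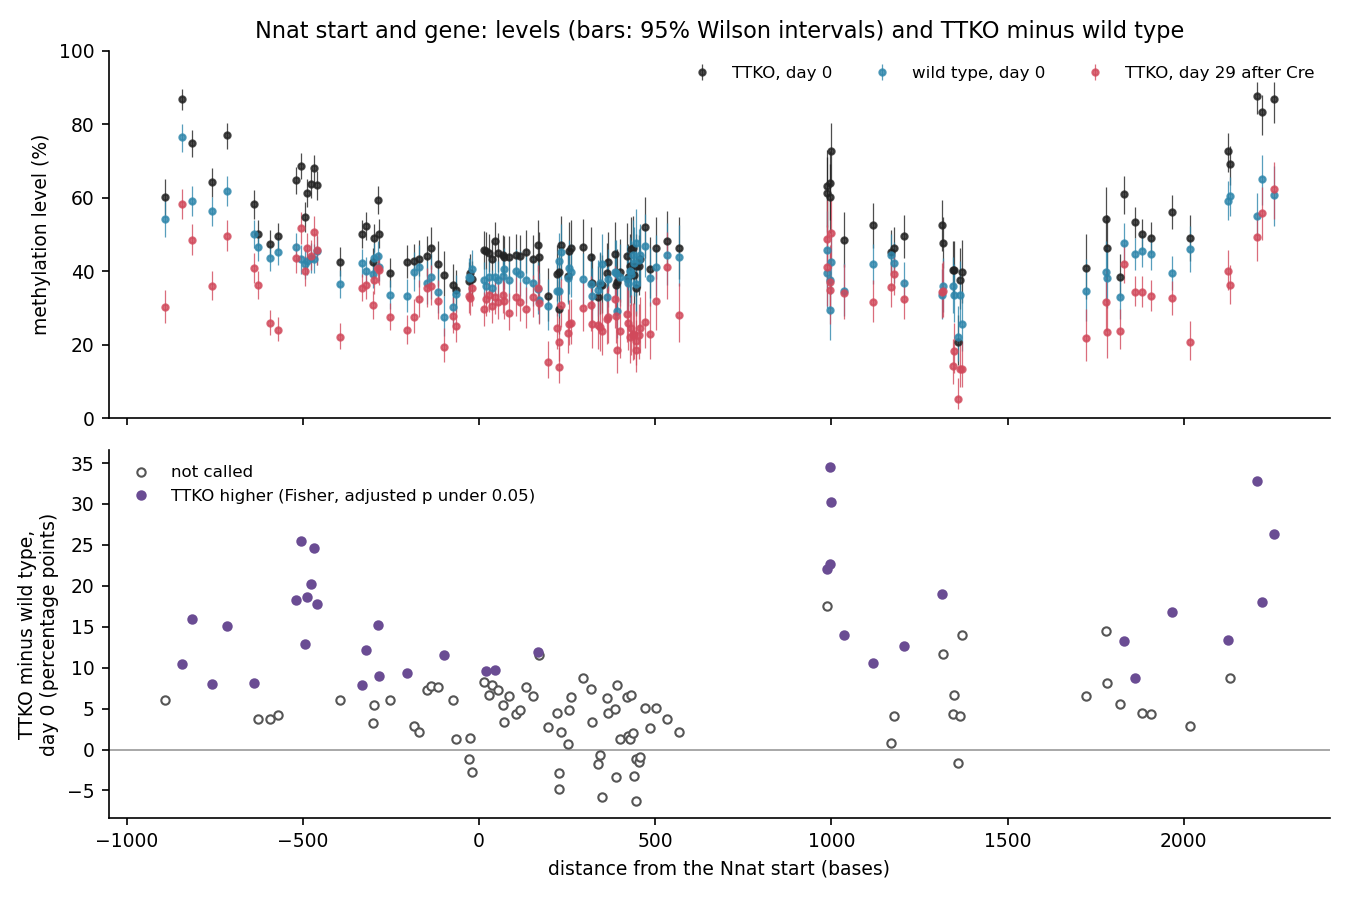
The upper plot shows the methylation level (%) of the 118 CpGs of the Nnat start and gene against the distance from the Nnat start (bases), in TTKO cells at day 0 (black), wild-type cells (blue) and TTKO cells at day 29 (red), with bars for 95% Wilson intervals. The lower plot shows TTKO minus wild type at day 0 in percentage points, with the 36 CpGs called higher in TTKO cells filled. Between -395 and +568, 65 of the 70 differences are under 10 points, and wider ones lie on both sides, the widest of all at +995 (34.5 points).

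Loss of methylation after removal of DNMT3 was compared with the whole capture table over a shared range of starting levels. Within this range of 30 to 70%, day 0 medians were 45.1% at the Nnat start and gene and 55.6% over the table. Among CpGs with 30 to 70% methylation at day 0, the 108 of the Nnat start and gene kept 91.2% of their summed level at day 10, 78.3% at day 17 and 65.2% at day 29. All 428225 CpGs of the table in that range kept 73.2%, 52.8% and 35.8%. The 7 CpGs of the rest of Blcap in that range kept 77.7%, 56.5% and 36.0%, close to the whole table. The same gene thus held CpGs with slow loss at Nnat and CpGs with loss at the table's pace behind it.

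**Figure D3:**
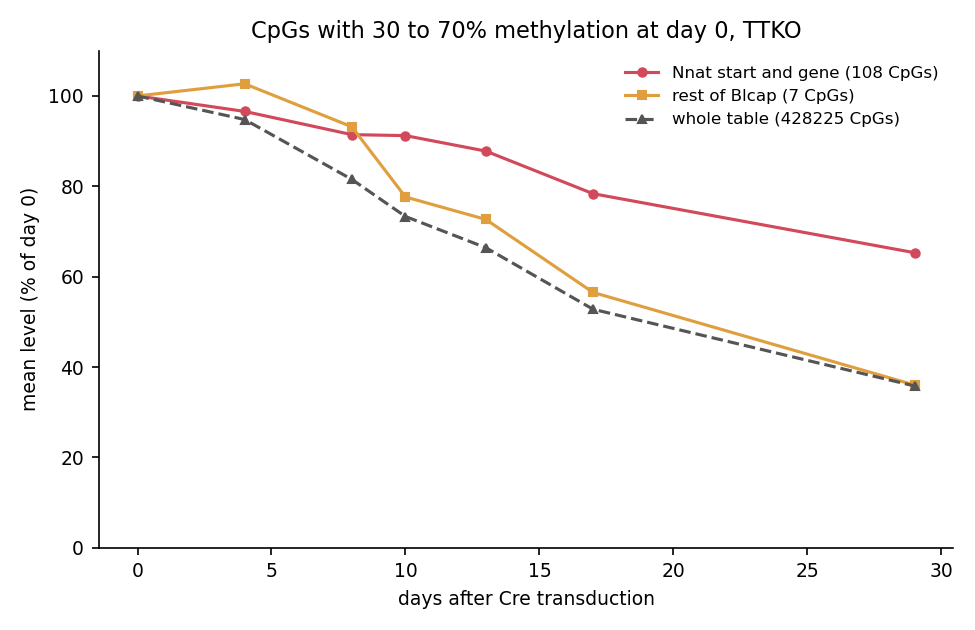
Mean methylation level as a percentage of day 0 against days after Cre transduction, for TTKO CpGs with 30 to 70% methylation at day 0 in the Nnat start and gene (red, 108 CpGs), the rest of Blcap (orange, 7 CpGs) and the whole table (dashed, 428225 CpGs). The Nnat line ends at 65.2% on day 29, and the other lines end at 36.0% and 35.8%.

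At least 50% of the day 0 level was kept at day 29 by 98 of these 108 CpGs (90.7%), against 15.6% of all CpGs in the range. At least 60% was kept by 74 of them (68.5%), against 6.17%. The share was highest at the start region, where 81 of 86 CpGs kept at least 50%, and it was 17 of 22 in the rest of Nnat and 1 of 7 in the rest of Blcap, the CpG at +3214, which kept 51.9%. With the narrower range of 40 to 60% at day 0, 64 of 69 Nnat CpGs (92.8%) kept at least 50%, against 9.40% of the table. Because the window was chosen with these levels known, and because the replicates were joined, the differences from the table are a description with no test.

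Over the table as a whole, the retained share fell from a median of 22.0% for CpGs with 5 to 10% at day 0 to 16.57% for those with 15 to 20%, and rose at higher starting levels, to 24.41% at 40 to 45% and 59.59% at 75 to 80%. In bins of 5 percentage points of the day 0 level, 88 of the 91 CpGs of the Nnat start and 21 of the 27 in the rest of Nnat lay above the upper quartile of all CpGs of the table in their bin. In the rest of Blcap, 7 of the 22 CpGs with at least 5% at day 0 did so. None of the 3 such CpGs near Blcap starts other than that at -71, which lie at +11371, +11875 and +11901, did so. Neither did the 2 outside both genes, at -4130 and -4097.

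**Figure D4:**
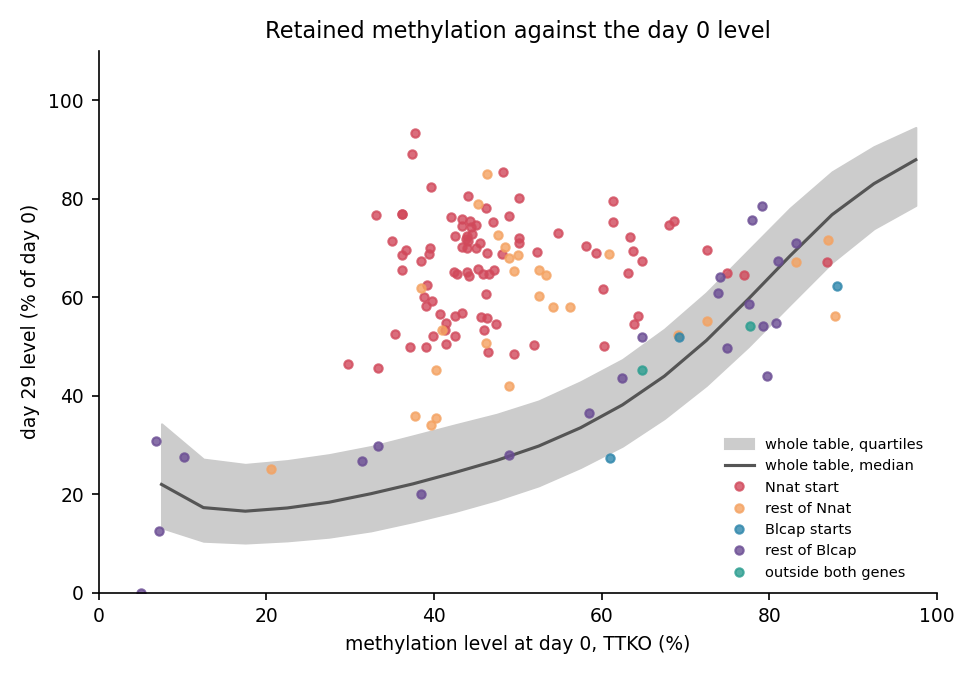
Day 29 level as a percentage of the day 0 level against the day 0 level (%), for the CpGs of the locus with at least 5% at day 0, coloured by where they lie. The grey line and band show the median and quartiles of all CpGs of the table in bins of 5 points, and nearly all points of the Nnat start (88 of 91) lie above the band.

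Calls at an adjusted p of 0.05, from Fisher's exact test between the pooled libraries, are counted beside those of the whole table, and since the window was selected on the same levels the counts describe the locus and test nothing about it. By this call, 130 of the 188 CpGs (69.1%) were lower at day 29 than at day 0, against 59.3% of the table. No CpG of the locus was called higher, against 0.171% of the table. The lower calls comprised 77 of 91 CpGs at the Nnat start, 26 of 27 in the rest of Nnat and 21 of 24 in the rest of Blcap. They also comprised 4 of the 44 near Blcap starts other than that at -71 and both CpGs outside the genes. In the 30 to 70% range, 93 of 108 Nnat CpGs (86.1%) were called lower, against 98.8% of the table. The 15 that were not called lay between -147 and +1177 and kept between 65.5 and 93.4% of their level, and 10 of them had fewer than 200 reads at day 29.

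The unmethylated stretch around the inner Blcap starts stayed near 0 throughout. Its 36 CpGs had medians of 1.0%, 1.15%, 0.75%, 0.75%, 1.0%, 0.95% and 0.9% in the order of the days and 0.85% in wild-type cells. The highest level at day 0 was 3.4% and the highest at day 29 was 2.9%, on 84 to 645 reads at day 0 and 72 to 605 at day 29. The only CpG of this stretch called lower was at +7229, with 3.2% at day 0 (1.86 to 5.57%, 371 reads) and 0.3% at day 29 (0.0509 to 1.61%, 347 reads). Of the table's CpGs under 10% at day 0, 113734 of 940927 were called lower. The lowest level, 0.0% at day 0, was shared by the CpGs at +6886, with 167 reads, 2.1% at day 29 and 3.2% in the wild type, and at +6959, with 249 reads, 0.4% and 0.7%.

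Around the outer Blcap start, the 8 measured CpGs fell into high and low ones. The CpGs at +11371, +11875 and +11901 fell from 69.3% to 36.0%, from 88.1% to 54.9% and from 61.0% to 16.7%, and all 3 were called lower. Such calls were the rule at these levels, with 98.8% of the table at 30 to 70% and 536143 of its 571838 CpGs at 70 to 90%. The other 5, at +11642, +11661, +11703, +11753 and +11935, had between 0.7 and 3.5% at day 0 and were not called. The CpG at +11875 had 88.1%, 81.7%, 81.6%, 78.3%, 76.4%, 63.3% and 54.9% over the 7 time points, and wild-type cells had 75.0%.

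The Blcap intron behind Nnat began high and fell further. The medians of its 17 CpGs between +2466 and +5023 were 75.0%, 75.5%, 69.1%, 65.7%, 58.1%, 48.2% and 43.0% over the 7 time points. Of the rest of Blcap, the highest CpG at day 0 was at +2625, which fell from 83.2% to 59.1% by day 29 and had 73.5% in the wild type, and the lowest was at +7548, with 2.2%, 0.5% and 3.8%. The CpG at +4062 kept the lowest share of the locus in the 30 to 70% range. It went through 38.5% (34.5 to 42.6%, 559 reads), 33.6%, 30.1%, 25.2%, 21.7%, 14.1% and 7.7% (5.82 to 10.1%, 598 reads), which is 20.0% of its day 0 level.

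TTKO and wild-type cells were compared at day 0 to see where the level of the locus differs between cells without and with TET enzymes. TTKO cells are a single clone, so loss of the TET enzymes and other properties of that clone cannot be told apart. In TTKO cells, 152 of the 188 CpGs had the higher level, beside 1684280 of the 2177608 CpGs of the table, a like share, and 51 (27.1%) were called higher, against 44.7% of the table. No CpG was called lower in TTKO cells, against 0.907% of the table. At the Nnat start and gene, 36 of 118 CpGs (30.5%) were called higher, and the median difference was 6.45 percentage points. In the 30 to 70% range of TTKO levels, 28 of 108 Nnat CpGs (25.9%) were called higher, against 76.0% of the table, and the median difference was 6.2 points, against 25.5 points over the table.

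The difference was small in the even stretch around the start. Over its 70 CpGs, the median was 43.4% in TTKO and 38.3% in wild type, the median difference was 4.85 points, and 9 CpGs were called higher. In the 30 to 70% range, 76.0% of the table was called, with a median difference of 25.5 points. Depth, on which calls depend, had a median of 183 reads in the even stretch and 245 in that range of the table. The CpG at -286 differed most in this stretch, with 59.3% in TTKO and 44.1% in wild type. In the opposite direction, the most different CpG of the locus was at +445 in a coding exon, with 41.4% in TTKO (33.2 to 50.1%, 128 reads) and 47.7% in wild type (38.6 to 57.0%, 109 reads), and these intervals overlapped.

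Wider differences lay in short groups on both sides of the even stretch, while the 12 CpGs between +1037 and +1370 and the 15 between +1724 and +2257 had median differences of 8.65 and 8.7 points. Of the 11 CpGs between -638 and -460, 8 were called higher in TTKO cells, with a median difference of 17.8 points. All 11 had 30 to 70% at day 0, where 76.0% of the table was called with a median difference of 25.5 points, so the calls were near the table's share and the median difference was smaller. The plus-strand sequence of 7 of them (chr2:157385284-157385363), chosen after the values had been seen, is shown with the measured CpGs in capitals.
Upstream stretch: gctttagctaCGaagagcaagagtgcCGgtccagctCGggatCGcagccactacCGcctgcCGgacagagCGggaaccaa
TTKO cells had a median of 63.8% (54.8 to 68.7%) and wild-type cells one of 43.4% (41.9 to 46.5%), with no overlap between them. The CpG at -504 had 68.7% in TTKO and 43.2% in wild type, the widest difference upstream of the start (25.5 points). Wild-type levels in this stretch were close to those in the even stretch that follows, while TTKO levels were not. At day 29 the 7 CpGs had a median of 45.8%.

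A second group whose difference was wider than in the even stretch lay at +987 to +999. Its 5 CpGs had a median of 63.2% in TTKO and 39.4% in wild type, on 76 to 106 and 81 to 118 reads, and 4 of them were called. The median difference of 22.7 points was below the 25.5 points of the table in the 30 to 70% range, where 76.0% was called. The CpG at +999 lay above that range, with 72.6% at day 0, and differed by 30.2 points. At 70 to 90% the median difference of the table was 17.5 points. The widest difference at Nnat was at +995, with 63.9% in TTKO (54.0 to 72.8%, 97 reads) and 29.4% in wild type (21.4 to 38.9%, 102 reads). At the end of the gene, the CpG at +2208 had 87.8% in TTKO and 55.0% in wild type.

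In the Blcap intron behind Nnat, 11 of 17 CpGs were called higher in TTKO cells. Among its CpGs with 70 to 90% at day 0, 8 of 11 were called, near the 74.1% of the table at such levels. The CpG at +3062 had 77.6% in TTKO and 32.0% in wild type, a difference of 45.6 points. The CpGs at +2466 and +2472 next to the end of Nnat, by contrast, had 77.9% and 79.1% without TET enzymes and 77.1% and 75.4% with them. The widest difference of the locus lay upstream of the outer Blcap start, at +11371, with 69.3% in TTKO (63.9 to 74.2%, 303 reads) and 18.7% in wild type (14.9 to 23.3%, 331 reads). The neighbouring CpG at +11642 had 1.7% and 2.6%.

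Rates of methylation and demethylation were inferred from the 7 time points of the TTKO cells with a grid of rate pairs, under a model in which kme is the rate of de novo methylation and kde the rate of demethylation per day, which without TET enzymes is passive loss. The model takes all DNA copies of a CpG as alike, which does not hold for a CpG methylated on 1 parental allele, so the rates are a summary of the traces. For the 108 CpGs of the Nnat start and gene in the 30 to 70% range, the median log2 kde was -5.88 and the median log2 kme was -6.15. For all CpGs of the table in that range they were -4.36 and -3.95, and for the 7 CpGs of the rest of Blcap they were also -4.36 and -3.95. Both rates were thus lower at Nnat than in the other sets.

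The rates of Nnat CpGs were also less sharply determined. A rate pair was called low noise where the 95% credible ranges of both rates were under 2 on the log2 scale, which held for 36.1% of the 108 CpGs, against 90.3% of the table in that range. This call depends on the settings. Over all 118 CpGs of the Nnat start and gene it held for 46, for 12 with ranges under 1, for 11 with a beta-binomial likelihood and for 23 without day 29, and the table was not recounted under these settings. At the CpG at -19, log2 kde was -8.35 with a credible range of -9.31 to -6.7. Its log2 kme was -8.9 (-9.86 to -6.98), a range that reaches the low end of the grid. At +4062, log2 kde was -3.68 (-3.95 to -3.54) and log2 kme was -4.23 (-4.78 to -3.95). These CpGs were picked as the highest and the lowest in retained share, so a difference between their loss rates follows from the choice. Over the 118 CpGs of the Nnat start and gene, log2 kde ranged from -8.35 at -19 to -3.68 at +1360. Neither of these CpGs had a low noise rate pair.

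The start regions of other imprinted genes are given beside Nnat. The list holds genes known for a methylated maternal allele, and CpGs within 1000 bases of an annotated start with 30 to 70% at day 0 were used. Nnat had medians of 44.2% at day 0 and 30.6% at day 29 over 86 CpGs, with a median retained share of 68.9%. Peg3, which encodes a zinc finger protein, had 45.6% and 36.8% over 74 CpGs, with 81.1% retained. Mest, which encodes a hydrolase-like protein, had 46.3% and 41.7% over 93 CpGs, with 90% retained. Peg10, derived from a retrotransposon, had 43.7% and 40.2% over 98 CpGs, with 92.9% retained. Snrpn, which encodes a splicing protein, had 37.4% and 28.6% over 11 CpGs, with 81.8% retained. At least 50% of the level was kept by 81 of 86 CpGs at Nnat, 71 of 74 at Peg3, 79 of 93 at Mest, 98 of 98 at Peg10 and 11 of 11 at Snrpn. By the median, the retained share at Nnat was the lowest of these 5 genes. Lower medians were found for Plagl1 (48.8%, 15 CpGs), Grb10 (46.6%, 15 CpGs) and Inpp5f (30.0%, 11 CpGs), where the range holds only a small part of the CpGs. Over all CpGs near its starts, the median of Plagl1 went from 25.9% to 23.7% (83 CpGs), that of Snrpn from 25.4% to 25.0% (25 CpGs), that of Grb10 from 4.0% to 2.05% (214 CpGs) and that of Inpp5f from 4.9% to 2.9% (130 CpGs), beside 44.4% to 30.8% at Nnat (91 CpGs). Zrsr1 and Mcts2 had no CpG in the range, with medians of 25.5% and 17.8% for Zrsr1 and of 2.2% and 1.3% for Mcts2 over all their CpGs, and Kcnq1ot1 was not analysed here. Over all CpGs, wild-type medians lay above those of TTKO cells at day 0 at Plagl1 (40.1%), Snrpn (36.1%), Zrsr1 (40.9%) and Mcts2 (3.1%). They lay below them at the other genes analysed, with 39.4% at Nnat. Differences between these genes were not tested.

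**Figure D5:**
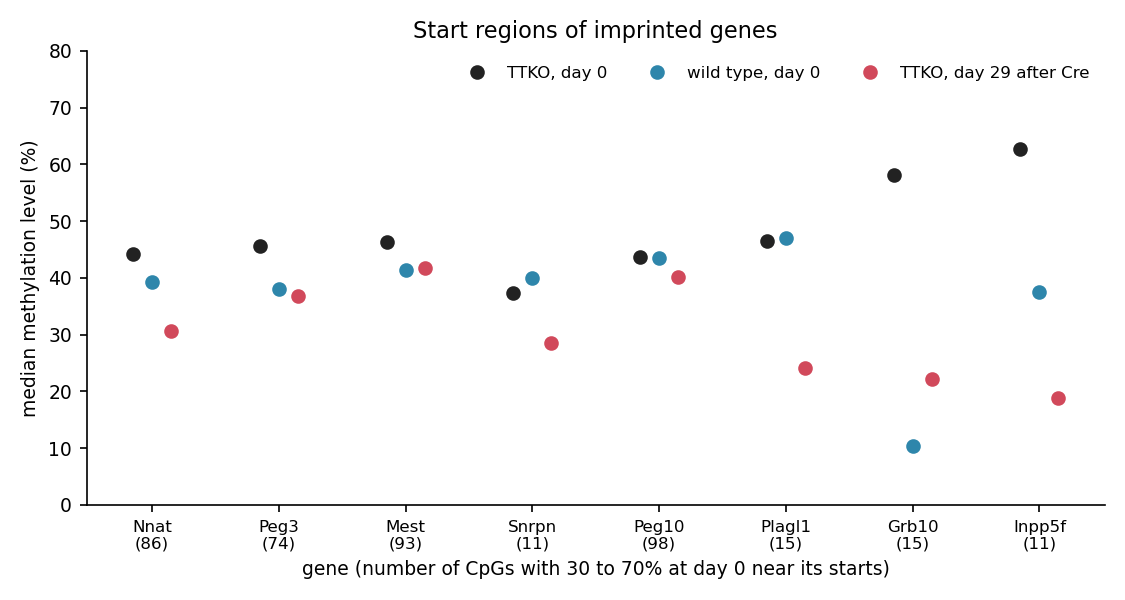
Median methylation level (%) of CpGs with 30 to 70% at day 0 near the starts of 8 imprinted genes, in TTKO cells at day 0 (black), wild-type cells (blue) and TTKO cells at day 29 (red), with the number of CpGs under each gene. Nnat, Peg3, Mest and Peg10 start between 43.7 and 46.3%, and Nnat has the lowest day 29 median of these 4, at 30.6%. Snrpn, Plagl1, Grb10 and Inpp5f, with 11 to 15 CpGs each, end lower, at 28.6%, 24.2%, 22.2% and 18.8%.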

How the data were processed

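DNA methylation was measured in mouse ESCs by SureSelect capture and bisulfite sequencing in 24 of the 102 samples of the series. The remaining 78 are amplicon samples, whose tables hold 0 CpGs in the window. The authors aligned reads to mm9 with Rbowtie in QuasR, determined levels with qMeth, and kept CpGs with a coverage of at least 50. They deposited methylation levels as percent values with 1 decimal place and coverage as read counts per CpG, with 3 replicates joined per condition and no further normalization. The 4 columns of the authors' inferred rates, TET activity and inference class were not used.

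Methylated reads were taken as coverage times level, rounded. For each CpG, pooled libraries were compared by a two-sided Fisher's exact test with Benjamini-Hochberg adjustment over 2177608 CpGs. Rates were fitted on a grid of 80 rates per axis in steps of 1.1 up to 2 per day, with a kme damping of 0.5 per day, an admixture of 8% for alleles without excision, an error of 0.0025 each way and a binomial likelihood; a border probability under 0.08 was required. The retained share is the day 29 level over the day 0 level. Genes were taken from GENCODE M1 and sequences from the mm9 reference (NCBIM37). The code for the Fisher tests and the rate fits was tested on simulated data. Python 3.11.15, numpy 2.4.6, scipy 1.17.1, pandas 2.3.3, numba 0.67.0 and matplotlib 3.10.9 were used.

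The window, zones and lists were chosen with earlier results of these data known. CpGs were named where they were nearest to the Nnat start, highest or lowest at day 0 in a zone, highest or lowest in retained share, most different between TTKO and wild type, inside a TGCCGC match, or at the ends of the window; others were chosen after their values had been seen. The alternatives were a minimum of 100 reads, reads summed over CpGs, other ranges and bounds, other rate settings and leaving out single days. Feeder cells present at day 0 may add reads to that column, and their part was not tested.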

Additional observations from a re-analysis of the deposited data

How the results depend on the processing

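Of the 66 values recomputed under an alternative, 59 stayed within the limits set for a change. The limit was 1.5 times for a count. For levels, shares and rates it was a shift taken from the width of their intervals. These limits were wide, with 5.92 points for the day 0 level of the Nnat start and 14.9 points for the retained share. They were 0.963 for the median log2 kde and 1.17 for the median log2 kme. Smaller shifts of these values were thus counted as unchanged. With an assumed over-dispersion of 0.0055, the value used for the amplicon assay and not measured on these libraries, the calls fell from 130 to 118 for lower at day 29 and from 51 to 36 for higher in TTKO cells. With at least 100 reads in every condition, 85 of 124 CpGs were lower at day 29 (130 of 188 otherwise), and fewer CpGs tested account for the smaller count. In that setting 1 CpG, at +6481, was called higher (0.3% at day 0 and 1.5% at day 29), and 1 CpG, at +6886, was called lower in TTKO cells (0.0% against 3.2%), where 0 were called in each case over all CpGs. The day 0 level of the Nnat start was 50.5% with reads summed over CpGs, which weights deeper CpGs, against a median of 44.4%. The number of low noise Nnat CpGs was 46, and it was 12 with credible ranges under 1 on the log2 scale, 11 with a beta-binomial likelihood and 23 without day 29, so these calls depend on the settings. No paired analysis was possible because the replicates are joined in a column per condition, and for the same reason no replicate could be left out. Depth limits single CpGs: with 59 to 125 reads over all conditions, as at +987 to +999, intervals span many percentage points.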
